A study of Homo sapiens with 3 samples.

Results

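The 9 genes described here serve antigen presentation by MHC class I: B2M, the heavy chain genes HLA-B, HLA-C, HLA-E and HLA-F, the transporter genes TAP1 and TAP2, TAPBP and ERAP1. They were picked by gene name, and all 9 were found among the 18345 genes of each expression table. B2M was included because its highest value lies in CD105low, so its pattern is given as a description only. RNA-seq was done on CD31+CD34+ cells, called HEPs in the labels, that were derived from the human embryonic stem cell line H1 and carry the label day 4. The culture used activin A at 40 ng/ml with BMP4 at 50 ng/ml for 2 days, and then VEGF at 40 ng/ml with bFGF at 50 ng/ml for 3 days. These stages, shared by all samples, add up to more than the labelled day. The cells were sorted by surface CD105 (endoglin) as negative, low or high, here CD105neg, CD105low and CD105high, with 1 library each.

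An MHC class I molecule is a heavy chain held by the light chain beta-2-microglobulin, which B2M encodes, with a short peptide in its groove. The proteasome cuts peptides in the cytosol, the TAP1-TAP2 transporter pumps them into the endoplasmic reticulum, ERAP1 trims them there, and tapasin, from TAPBP, tethers the empty heavy chain to the transporter until a good peptide is bound. Human embryonic stem cells carry little class I on their surface, endothelial and blood cells carry more, and interferons raise most genes of the pathway.

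The file headers name no unit; the values are read here as FPKM, that is, fragment counts divided by transcript length and by library size. The tables summed to between 265618 and 289229 FPKM. The absolute depth is unknown. Among genes under 0.05 FPKM, the most frequent ratio of values was 0.959 for CD105high over CD105neg and 0.908 for CD105low over CD105neg, held by 28 of 678 and 25 of 698 genes. If the unit is FPKM, these ratios estimate what 1 read was worth, and relative depth then differed little. ENG, which encodes CD105, followed the sort, at 2.12, 8.56 and 13.8 FPKM in CD105neg, CD105low and CD105high. Endothelial markers were present in all 3 libraries, with CDH5 at 48.0, 79.6 and 94.1 FPKM. Of 14 leukocyte markers, PTPRC was at 0.0038, 0 and 0 FPKM in the same order, while LAPTM5 stood at 51.6, 44.1 and 35.5 FPKM and 7 reached 1 FPKM. With 1 library per group there is no spread between replicates, no test can be made and no p-value is given. Genes are called higher or lower when FPKM + 1 differed at least 1.5-fold, and each difference is between single libraries. In such sorted samples, fewer cells that express a gene and less RNA per cell cannot be told apart.

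Of the 9 genes, B2M alone passed that fold in every comparison. TAPBP was lower in CD105high than in CD105neg, and the other 7 genes stayed within 1.5-fold in all 3 comparisons on the deposited scale. For CD105high against CD105neg, 1 gene was higher and 1 lower, beside 5.65% and 6.88% of the 11343 genes that reached 1 FPKM in some library. For CD105low against CD105neg, 1 gene was higher and none lower, beside 4.13% and 2.18% of all such genes. For CD105high against CD105low, none was higher and 1 lower, beside 1.18% and 2.19%. The first 2 comparisons share the CD105neg library. The median log2 fold change over the 9 genes was -0.16, -0.09 and -0.10 in these comparisons, in the order just given, and that over the 11343 genes was -0.09, 0.02 and -0.10. The middle gene of the group therefore lay close to the middle gene of the transcriptome.

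**Figure D1:**
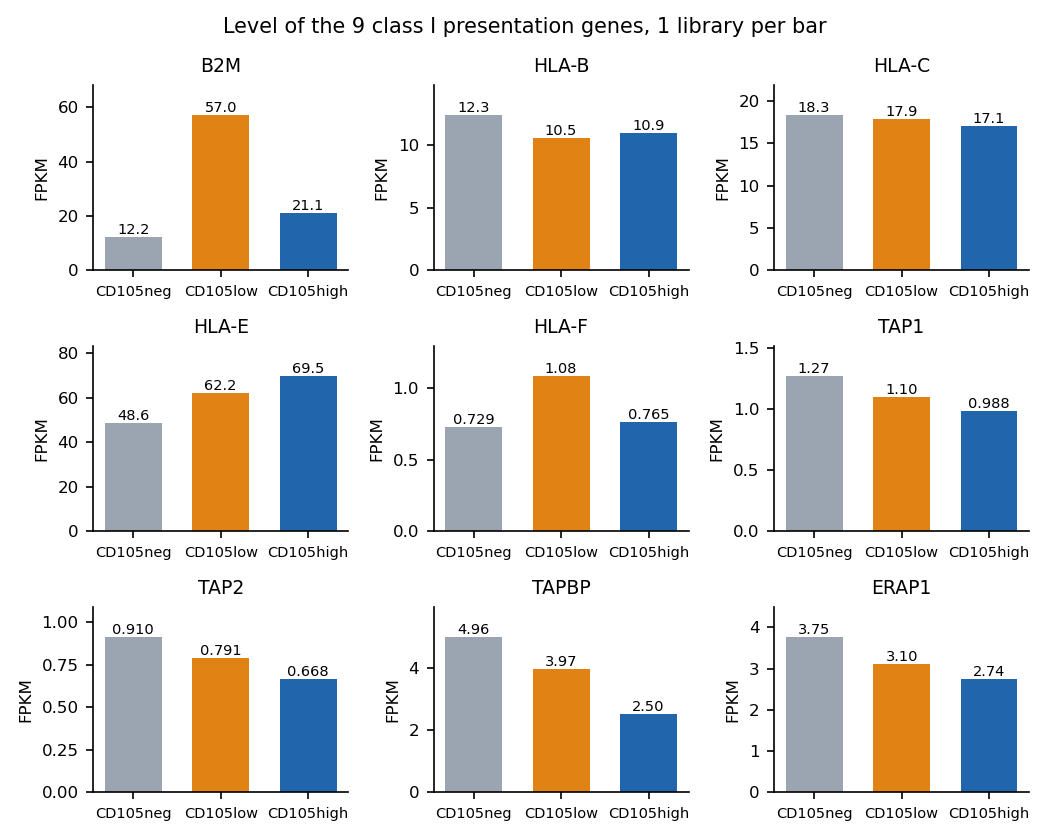
Level of each of the 9 genes in FPKM (vertical axis, each panel on its own scale from 0) in CD105neg, CD105low and CD105high, 1 library per bar. B2M stands at 57.0 FPKM in CD105low, far above its bars of 12.2 and 21.1 FPKM in CD105neg and CD105high, while the bars of HLA-B and HLA-C are nearly level and those of TAPBP step down.

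In CD105low the order of levels was HLA-E, B2M, HLA-C, HLA-B, TAPBP, ERAP1, TAP1, HLA-F and TAP2, with B2M in the 4th place in CD105neg and the 2nd in CD105high. Whether neighbours in that order differ beyond their spread cannot be said from single libraries.

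B2M (ENSG00000166710.17) had 12.2, 57.0 and 21.1 FPKM in CD105neg, CD105low and CD105high. Its value in CD105low was thus 4.66 times that in CD105neg, and its value in CD105high was 1.72 times that in CD105neg and 0.370 times that in CD105low. On the log2 scale of FPKM + 1 the differences were 2.13 for CD105low against CD105neg, 0.74 for CD105high against CD105neg and -1.39 for CD105high against CD105low. Within each library, 74.7%, 95.4% and 85.8% of the 18345 genes lay below B2M in CD105neg, CD105low and CD105high. None of the 349 sampled 50-base pieces of the B2M transcripts occurs in a transcript of another gene, and no annotated exon of another gene overlaps its exons on either strand.

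Few genes had a peak of the kind for which B2M was chosen. CD105low stood at least 1.5-fold above both other libraries in 0.37% of the 11343 genes. Among the 5919 genes that reached 10 FPKM in any library it did so in 25, or 0.422%. Ranked by the smaller of the 2 gaps, B2M came 2nd of these 25, with a smaller gap of 1.39 (log2), after RAP1B, a Ras-like small GTPase gene, with 1.65, and before EEF1G, a subunit gene of elongation factor 1, with 1.22. RAP1B stood at 31.4, 100.9 and 28.6 FPKM and EEF1G at 215, 504 and 157 FPKM in CD105neg, CD105low and CD105high. Of the sampled pieces of RAP1B and EEF1G, 18.6% and 97.6% occur in other genes. Of all 25, 7 genes share at least 10% of their pieces and 7, B2M among them, share none. Sharing was not computed over all genes, so these counts are descriptions. The part of shared sequence in any of these peaks was not tested. EEF1G and the rank were chosen after the values were seen.

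**Figure D2:**
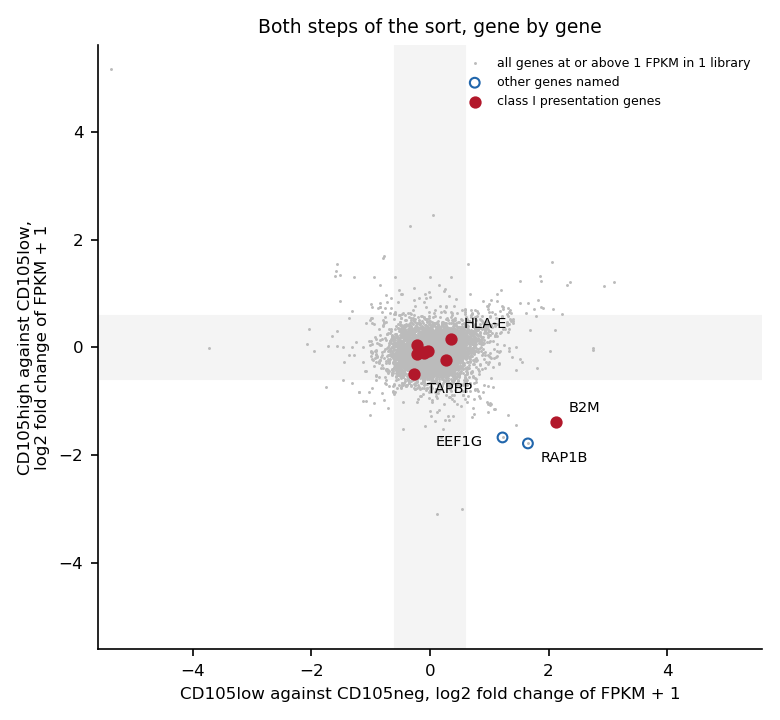
Grey points are the 11343 genes that reached 1 FPKM and red points the 9 class I presentation genes, each placed by its log2 fold change of FPKM + 1 for CD105low against CD105neg (horizontal) and for CD105high against CD105low (vertical); grey bands mark differences under 1.5-fold. B2M lies at 2.13 and -1.39, in the lower right with RAP1B and EEF1G, while the other 8 red points, TAP2 among them although it did not reach 1 FPKM, lie inside both bands.

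No gene matched the B2M pattern closely. Likeness was measured as the distance between the pairs of log2 fold changes of CD105low and of CD105high against CD105neg, over 3 libraries and among genes at or above 10 FPKM. The nearest 5 genes were CD40, a receptor of the TNF receptor family found on endothelial and antigen-presenting cells, AUTS2, CNEP1R1, RAP1B and GABARAPL1, an autophagy gene, at distances of 0.97, 0.98, 0.99, 0.99 and 0.99. CD40 stood at 17.7, 41.1 and 33.4 FPKM in CD105neg, CD105low and CD105high. GABARAPL1 stood at 21.5, 60.9 and 61.3 FPKM, without the drop of B2M between CD105low and CD105high. With a pseudocount of 5, 3 of these 5 genes remained among the nearest 5, and among genes at or above 1 FPKM none did.

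No heavy chain gene among the 9 stood 1.5-fold above both other libraries in CD105low as B2M did, although HLA-F was highest there. HLA-E (ENSG00000204592.8), whose product presents leader peptides of other class I chains to NK cells, was the highest of the 9 genes in each library, at 48.6, 62.2 and 69.5 FPKM in CD105neg, CD105low and CD105high. Its CD105high value was 1.43 times that in CD105neg (log2 fold change 0.51), just under the 1.5-fold rule. It passed that rule after centring on the median gene (log2 fold change 0.61), and after scaling to equal sums or by housekeeping genes (0.64 each). HLA-E was the one gene of the 9 with a value that went up at each step of the sort, as did 17.6% of the 11343 genes.

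HLA-C (ENSG00000204525.16), a classical heavy chain that also binds inhibitory receptors of NK cells, stood at 18.3, 17.9 and 17.1 FPKM in CD105neg, CD105low and CD105high. Its highest value was 1.07 times its lowest, the narrowest range of the 9 genes. HLA-B (ENSG00000234745.10), the other classical heavy chain here, stood at 12.3, 10.5 and 10.9 FPKM, with a highest value 1.17 times its lowest. In CD105neg, HLA-B and B2M were nearly equal, whereas in CD105low B2M was the higher gene. HLA-F (ENSG00000204642.13), a non-classical heavy chain that can appear at the surface without peptide, stood at 0.729, 1.08 and 0.765 FPKM. It was highest in CD105low like B2M, and reached 1 FPKM in that library only. Its value in CD105low was 1.49 times that in CD105neg, and its value in CD105high was 0.706 times that in CD105low. For CD105low against CD105neg its log2 fold change was 0.27, or 0.51 with a pseudocount of 0.1. Thus 2 of the 9 genes were highest in CD105low, beside 35.1% of the 11343 genes, 6 were highest in CD105neg, beside 43.3%, and 1 in CD105high, beside 21.5%.

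HLA-B, HLA-C, HLA-E and HLA-F together summed to 79.9, 91.7 and 98.3 FPKM in CD105neg, CD105low and CD105high, and HLA-E made up 60.8%, 67.9% and 70.8% of that sum. Since FPKM is scaled by length, B2M can be set beside these 4 genes, and the ratio of B2M to their sum was 0.153, 0.622 and 0.214 in the same order. The sum does not hold every class I heavy chain. It was 1.15 times as high in CD105low as in CD105neg, against 4.66 times for B2M. Heavy chain genes differ strongly between people, and reads from alleles unlike the reference can be lost; all 3 libraries come from the same line, and the effect on these levels was not tested.

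**Figure D3:**
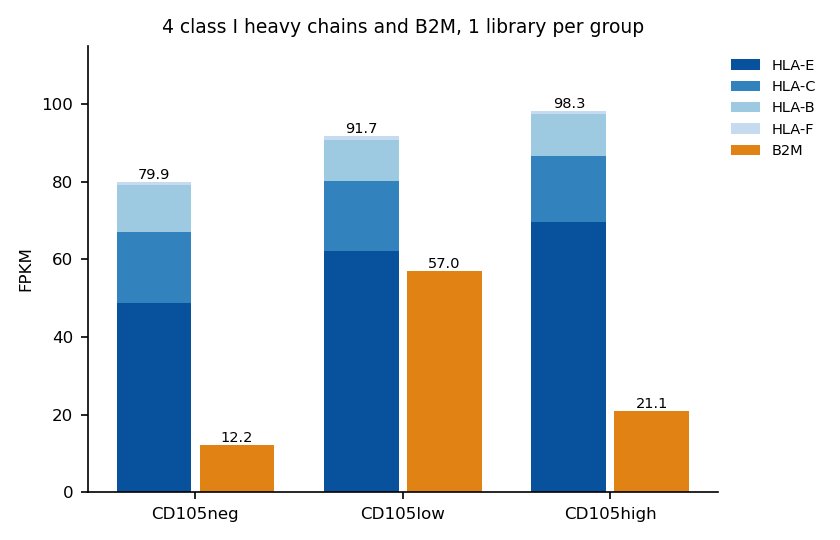
FPKM (vertical axis, from 0) of HLA-E, HLA-C, HLA-B and HLA-F stacked in blue and of B2M in orange, for CD105neg, CD105low and CD105high, 1 library each. The stacks reach 79.9, 91.7 and 98.3 FPKM, while the B2M bars are 12.2, 57.0 and 21.1 FPKM high.

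Little of the sequence of these 4 heavy chain genes is identical between them over 50 bases. Of the sampled pieces of HLA-C, 1.63% occur in HLA-B, and of those of HLA-E, 1.94% occur in HLA-C. With any other gene, HLA-C shares 6.50% and HLA-E 5.83% of its pieces. The larger shares came from overlapping annotations. HLA-B shares 21.5% of its pieces with other genes, of which a transcript on the opposite strand, AL671883.2, accounts for 20.0%. HLA-F shares 26.9%, mostly with AL645939.1 on the opposite strand. The library kit does not mark the strand, so reads of such pairs cannot be told apart.

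The promoters of B2M, HLA-B and HLA-C are shown because these 3 genes share 4 motifs while B2M alone of them passed 1.5-fold, and that of TAPBP because it was the other of the 9 genes past that fold. Each line gives the 250 bases before the RefSeq start (GRCh38.p14), 5′ to 3′ on the strand of the gene. Capitals mark matches on either strand to AANNGAAA (IRF-type), the interferon-stimulated response element (GAAA, any 2 bases, GAAA; each match contains an IRF-type one), the kB-type motif (GGGA, any 4 bases, CC), TGACG (the core of a cAMP response element, which class I promoters carry) and CCAAT. Neighbouring matches can run together.
B2M: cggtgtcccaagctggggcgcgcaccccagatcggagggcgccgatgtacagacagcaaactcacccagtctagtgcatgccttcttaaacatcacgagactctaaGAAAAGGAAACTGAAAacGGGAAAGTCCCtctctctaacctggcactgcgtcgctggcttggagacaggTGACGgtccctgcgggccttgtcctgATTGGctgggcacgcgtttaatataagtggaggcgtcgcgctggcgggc
HLA-B: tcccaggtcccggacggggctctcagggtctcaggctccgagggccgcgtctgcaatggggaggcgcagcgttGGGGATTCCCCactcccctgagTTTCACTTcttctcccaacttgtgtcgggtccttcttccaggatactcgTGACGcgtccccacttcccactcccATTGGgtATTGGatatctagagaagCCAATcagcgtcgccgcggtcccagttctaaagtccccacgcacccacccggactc
HLA-C: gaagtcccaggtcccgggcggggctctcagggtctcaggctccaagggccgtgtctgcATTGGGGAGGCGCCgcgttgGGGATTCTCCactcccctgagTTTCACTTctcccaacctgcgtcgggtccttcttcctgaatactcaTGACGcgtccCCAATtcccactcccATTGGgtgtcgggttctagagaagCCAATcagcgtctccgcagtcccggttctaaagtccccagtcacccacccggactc
TAPBP: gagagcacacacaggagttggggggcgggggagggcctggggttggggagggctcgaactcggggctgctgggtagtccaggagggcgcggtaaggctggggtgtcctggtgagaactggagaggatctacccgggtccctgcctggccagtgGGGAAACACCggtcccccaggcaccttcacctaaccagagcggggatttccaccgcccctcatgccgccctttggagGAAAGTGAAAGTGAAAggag
The windows are chr15:44711267-44711516 on the plus strand for B2M, chr6:31357180-31357429 on the minus strand for HLA-B, chr6:31272093-31272342 on the minus strand for HLA-C and chr6:33314079-33314328 on the minus strand for TAPBP.

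Promoter windows of 300 bases, 250 before and 50 after the start, were found for 8 of the 9 genes, and HLA-E had none in the table. The 8 genes had 10 windows. A gene was counted when any of its windows held a match, whereas the shares over all promoters are per window. B2M, HLA-B and HLA-C each held the IRF-type, kB-type, TGACG and CCAAT motifs together, as did 0.288% of 35116 human promoter windows. TGACG began at position -75 from the start in B2M, -106 in HLA-B and -105 in HLA-C, each time upstream of a CCAAT motif, read as ATTGG on the strand of the gene. The interferon-stimulated response element was found in 6 of the 8 genes, among them B2M, TAP1, TAP2 and TAPBP, and in 3.57% of all windows. TAPBP held 2 such matches just before its start and neither TGACG nor CCAAT. Counted 1 at a time, AANNGAAA was in 22.8%, the kB-type motif in 25.6%, TGACG in 24.6% and CCAAT in 34.6% of all windows. The letters were chosen with these promoters in view, and the shares are descriptions.

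The tapasin, trimming and transporter genes stood low. TAPBP (ENSG00000231925.11), tapasin, stood at 4.96, 3.97 and 2.50 FPKM in CD105neg, CD105low and CD105high. Its CD105high value was 0.505 times that in CD105neg (log2 fold change -0.77) and 0.631 times that in CD105low (-0.50). With a pseudocount of 5 the log2 fold change for CD105high against CD105neg was -0.41, which is under 1.5-fold. ERAP1 (ENSG00000164307.12), the trimming peptidase, stood at 3.75, 3.10 and 2.74 FPKM, a log2 fold change of -0.34 for CD105high against CD105neg.

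TAP1 (ENSG00000168394.10) and TAP2 (ENSG00000204267.13), the paired chains of the peptide transporter, were near 1 FPKM. TAP1 stood at 1.27, 1.10 and 0.988 FPKM in CD105neg, CD105low and CD105high, and TAP2, which reached 1 FPKM in no library, at 0.910, 0.791 and 0.668 FPKM. The log2 fold change for CD105high against CD105neg was -0.19 for each of them. Of the sampled TAP2 pieces, 45.7% also occur in AL669918.1, an overlapping gene on the same strand that stood below 0.05 FPKM in each library. TAP1 shares 17.6% of its pieces, chiefly with PSMB8-AS1 on the opposite strand.

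TAPBP, ERAP1, TAP1, TAP2 and HLA-C were lower at each step of the sort from CD105neg to CD105high, as were 36.4% of the 11343 genes. The steps of most of them were small. After each comparison was centred on the median gene, 2 of the 9 genes stepped down. After scaling by housekeeping genes 3 did, and after scaling to equal sums 4 did. The share of all genes that stepped down was not computed under these scalings. HLA-C changed sign for CD105high against CD105neg under all 3 of these scalings.

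**Figure D4:**
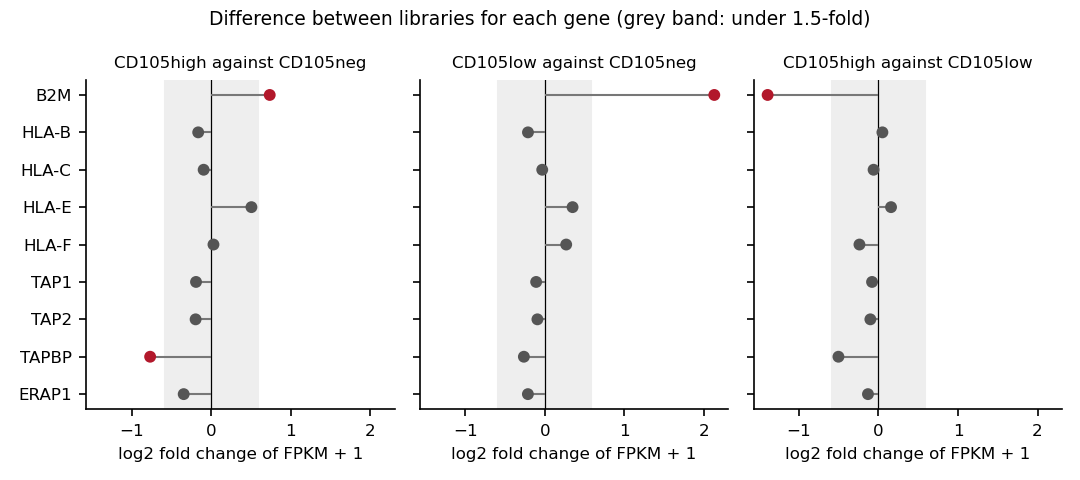
Log2 fold change of FPKM + 1 (horizontal axis) of the 9 genes for CD105high against CD105neg, CD105low against CD105neg and CD105high against CD105low, with red points at or past 1.5-fold and the grey band under it. B2M lies outside the band in all 3 panels, TAPBP at -0.77 in the first, and the other points lie within it.

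The chaperones and enzymes that fold and load class I were mostly abundant and level. Of 11 such genes, 9 reached 1 FPKM and none was 1.5-fold apart in any comparison, with a median log2 fold change of -0.01 for CD105high against CD105neg, or 0.09 to 0.12 under the 3 other scalings. Calreticulin (CALR), which holds the heavy chain with B2M in the loading complex, stood at 283, 281 and 287 FPKM in CD105neg, CD105low and CD105high. PDIA3, the disulfide isomerase of the loading complex, stood at 158, 158 and 155 FPKM. The tapasin relative TAPBPL and the second trimming peptidase ERAP2 stayed at or below 0.514 FPKM.

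The inducible catalytic subunits of the proteasome were low beside their constitutive counterparts. Of 7 immunoproteasome genes, 6 reached 1 FPKM (median of the 6 -0.43 for CD105high against CD105neg). Of the 6, 2 were lower in CD105high than in CD105neg, PSME2 and PSMB10, beside 6.88% of the 11343 genes. PSMB10, a catalytic subunit, stood at 5.71, 3.42 and 3.46 FPKM in CD105neg, CD105low and CD105high, and PSME2, part of the PA28 activator, at 25.2, 19.0 and 16.2 FPKM. PSMB8 stood at 1.46, 1.13 and 0.818 FPKM and PSMB9 at 0.575, 0.689 and 0.511 FPKM. The start of PSMB9 lies 488 and 1431 bases (GRCh38.p14) from the listed starts of TAP1, which is on the other strand. The constitutive PSMB5 and PSMB6 stood at 78.6, 70.7 and 63.3 FPKM and at 107, 93.2 and 85.2 FPKM, and none of the 3 constitutive genes was 1.5-fold apart (median -0.31 for CD105high against CD105neg).

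Of the interferon-induced genes outside the pathway, those past 1.5-fold were mostly higher in CD105high and CD105low than in CD105neg, while the list's median depended on the minimum level. Of 31 with a value, 22 reached 1 FPKM. Of the 22, 7 were higher and 1 was lower in CD105high than in CD105neg (median 0.11), beside 5.65% and 6.88% of the 11343 genes. For CD105low against CD105neg, 6 were higher and none lower (median 0.17), beside 4.13% and 2.18%. Some of the higher genes, IFIT2 and IFI44 among them, were under 1 FPKM in CD105neg and met the minimum only through the other libraries. Over the 7 genes of the list that reached 10 FPKM, the median for CD105high against CD105neg was -0.35. Of these 7, 2 were higher and 1 was lower, beside 367 and 379 of the 5919 genes at or above 10 FPKM. IFIT1, whose product binds viral RNA, stood at 8.57, 21.2 and 36.7 FPKM and the ubiquitin-like ISG15 at 71.2, 111 and 156 FPKM in CD105neg, CD105low and CD105high, both going up at each step. IFITM2 was the gene that was lower, at 16.1, 11.1 and 8.27 FPKM. Among 15 receptor and signalling genes with a value, 13 reached 1 FPKM. Of the 13, 1 was higher in CD105high than in CD105neg, beside 5.65% of the 11343 genes. It was the kinase gene JAK1, at 38.7, 56.2 and 70.3 FPKM in CD105neg, CD105low and CD105high. NLRC5, the transactivator of class I genes, stood at 0.666, 1.54 and 1.25 FPKM in the same order. It was the 1 gene of that list higher in CD105low than in CD105neg, beside 4.13% of the 11343 genes. Its log2 fold change of 0.61 lay just past the fold, and it met the minimum of 1 FPKM only outside CD105neg. CIITA, the class II transactivator, was listed at 0 throughout, and STAT2, IRF1, IRF2, IRF9 and RFX5 were not analysed here.

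**Figure D5:**
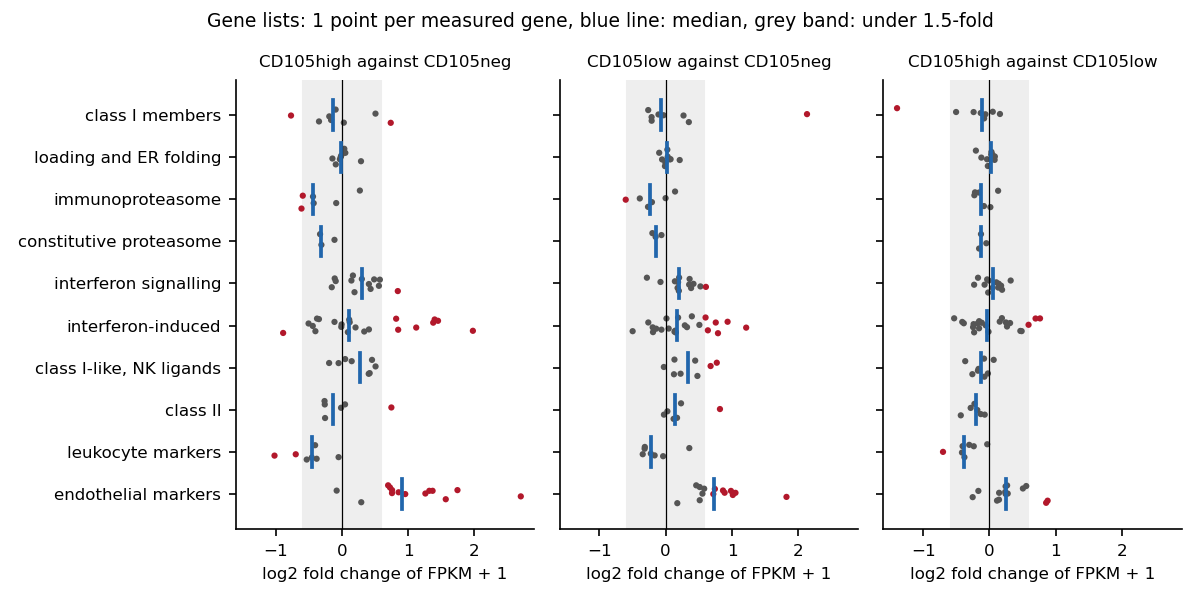
Log2 fold change of FPKM + 1 (horizontal axis) of each gene at or above 1 FPKM, by gene list (rows) for CD105high against CD105neg, CD105low against CD105neg and CD105high against CD105low; blue lines are medians, red points at or past 1.5-fold, the grey band under it. The 8 class I genes shown lie in the band apart from B2M and TAPBP, while the endothelial medians are 0.91 and 0.73 in the first 2 panels.

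Marker lists of other cells moved with the sort as well. Beside the counts below, 5.65% of the 11343 genes were higher and 6.88% lower in CD105high than in CD105neg. Leukocyte markers summed to 70.8, 60.7 and 47.3 FPKM in CD105neg, CD105low and CD105high, mostly from LAPTM5, and 2 of the 7 that reached 1 FPKM, SPN and CORO1A, were lower in CD105high than in CD105neg. Endothelial markers summed to 1513, 2201 and 2353 FPKM, with 12 of 14 higher in CD105high than in CD105neg. Erythroid and megakaryocyte markers summed to 113, 72.2 and 57.3 FPKM, and 9 of the 11 that reached 1 FPKM were lower in CD105high than in CD105neg. Mesenchymal markers summed to 404, 389 and 332 FPKM, with 4 of 8 lower in CD105high than in CD105neg and 1 higher, THY1, at 33.6, 53.9 and 57.3 FPKM. Of 10 listed pluripotency markers, 6 were analysed here. These summed to 103, 94.3 and 84.1 FPKM, mostly from DNMT3B and DPPA4, with 1 of the 6 lower in CD105high than in CD105neg. None of these sums was highest in CD105low, but each of these lists held single markers that were, among them CD52, EGFL7, EPOR, PDGFRA and DPPA4. The sum of the MHC class II genes, markers of antigen-presenting blood cells, was highest there, at 14.1, 17.7 and 14.3 FPKM. So was that of the class I-like genes and NK receptor ligands, at 116, 134 and 124 FPKM. The part of any of these cells in the levels of the 9 genes was not tested. The median log2 fold change of 27 housekeeping genes, with which B2M is often grouped, was -0.19 for CD105high against CD105neg and 0.00 for CD105low against CD105neg.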

How the data were processed

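The deposited tables hold 1 value per gene and library, treated as FPKM as set by the authors. The headers do not name the unit and TPM is possible. Per the submitters' processing notes, BWA, Bowtie, RSEM and hg19 were used, with no role, order or version; the sources used here name neither annotation nor filters. The input was 2 ug of RNA and the kit TruSeq RNA, per the labels' protocols. The CD105neg value column has a name that reads as CD105 positive; groups follow the samples' own titles.

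Differences are log2(FPKM + 1), computed with Python 3.11.15 and pandas 2.3.3 on the deposited scale. Only the arithmetic was checked, on folds planted without noise, which does not test calls between single libraries. Identifiers were matched without version to GENCODE 29 (18317 of 18345), which is on another build; pieces of 50 bases every 40 were compared between transcripts. Promoters are RefSeq's (GRCh38.p14).

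Members and lists were chosen with earlier results of these data known. Named genes are all members, up to 4 per list with the largest differences, and the 5 most like B2M (clone-named, small RNA and mitochondrial genes left out); others were chosen after their values were seen, and some genes are not reported here. Alternatives changed the pseudocount (0.1, 5), scaling, minimum level (10 FPKM or none), fold (2) and members sharing sequence.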

Additional observations from a re-analysis of the deposited data

How the results depend on the processing

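B2M stayed past 1.5-fold in all 3 comparisons under every pseudocount, scaling and filter tried. Its log2 fold changes were 1.85 to 2.22 for CD105low against CD105neg and -1.43 to -1.23 for CD105high against CD105low. For CD105high against CD105neg they were 0.60 to 0.89, the lowest, with a pseudocount of 5, lying just past the fold. B2M was chosen for its peak in CD105low, so these ranges describe the same single libraries and do not test the peak. At a 2-fold rule, 0 genes were higher and 0 lower in CD105high than in CD105neg. For that comparison, 2 genes were higher after centring on the median gene, after scaling to an equal sum and after scaling by housekeeping genes, since HLA-E passed 1.5-fold, and 0 were lower with a pseudocount of 5 or among the 4 members at or above 10 FPKM. With a pseudocount of 0.1, 2 genes were lower in CD105high than in CD105low, TAPBP at -0.64 being the second. The number of genes highest in CD105low was 1 among members at or above 10 FPKM and 1 among the 5 members that share under 10% of their sequence. The number that stepped down was 2 after centring, 4 after scaling to an equal sum, 3 after scaling by housekeeping genes, 1 among members at or above 10 FPKM and 3 without members that share sequence. Of all 5919 genes at or above 10 FPKM, 367 were higher and 379 lower in CD105high than in CD105neg. Shares over all genes were not computed for the other scalings, pseudocounts and fold, so those counts describe the members only. List medians were counted once per comparison and alternative setting. Of these counts, 305 stayed on their side of 1.5-fold, 7 crossed it and none with a value past it on either side changed sign. Within the band, 19 changed sign or fell to 0. The largest such change was that of the interferon-induced genes for CD105high against CD105neg, at 0.11 over 22 genes and -0.35 over the 7 at or above 10 FPKM. Of the log2 fold changes of the 9 genes, counted in the same way, 9 changed sign within the band, those of HLA-C, TAP1 and TAP2 under other scalings. No paired analysis was possible because each group has 1 library, and for the same reason no replicate could be left out. Values near or under 1 FPKM, those of TAP1, TAP2 and HLA-F, rest on the fewest reads, and the absolute depth is unknown.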

Other observations

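Other proteins that pair with beta-2-microglobulin were expressed at low levels. Of the class I-like genes, FCGRT, the heavy chain of the neonatal Fc receptor, stood at 4.17, 7.83 and 5.85 FPKM in CD105neg, CD105low and CD105high, and its log2 fold change for CD105low against CD105neg was 0.77. CD1D, which presents lipids, stood at 2.57, 3.17 and 2.95 FPKM, a log2 fold change of 0.22 for CD105low against CD105neg. Both genes were highest in CD105low, as were 35.1% of the 11343 genes that reached 1 FPKM. HFE and MR1 stayed at or below 0.204 FPKM. Of the list of class I-like genes and NK receptor ligands, 8 of 18 reached 1 FPKM. Of these, 2 were higher in CD105low than in CD105neg, beside 4.13% of the 11343 genes. They were FCGRT and the NKG2D ligand gene ULBP3, at 1.75, 3.41 and 2.68 FPKM. None of the 8 was 1.5-fold apart in CD105high against CD105neg. CD1D, HFE and MR1 were named after their values were seen.

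MHC class II genes were low, with 6 of 13 at or above 1 FPKM and a summed level of 14.1, 17.7 and 14.3 FPKM in CD105neg, CD105low and CD105high. HLA-DRB1 stood at 1.95, 4.20 and 3.94 FPKM, while HLA-DRA, whose product is the obligate partner chain, was at or below 0.0223 FPKM in each library. CD74, the invariant chain, stood at 3.93, 3.84 and 3.13 FPKM.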
